A study of Drosophila melanogaster with 3 samples.

Results

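The peaks described here are autosomal binding sites of the tagged protein CG16863-eGFP that lie in introns, at a moderate distance from a transcription start site (TSS). They come from the list that passed the authors' irreproducible discovery rate (IDR) threshold, and the peaks of that list are called reproducible here. A peak was included when its summit was on chromosome arm 2L, 2R, 3L, 3R or on chromosome 4, 501 to 2000 bp from the nearest annotated TSS of any gene, inside a gene and in no annotated exon. Of the 3953 reproducible peaks, 3203 were autosomal and 435 met this rule, which is 11.0% of the set and 13.6% of its autosomal peaks. The rule used positions and the authors' IDR threshold. In the pooled list that threshold was a height: the peaks with a pooled signal of 108.6 or more were the reproducible ones, and no lower peak was. Pooled height thus had a part in the choice of these peaks, and their heights are given as a description; differences between classes of reproducible peaks are among peaks chosen by that same height.

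The chromatin came from whole Drosophila melanogaster embryos aged 0 to 16 h, of mixed sex, from a transgenic line that stably expresses CG16863 with GFP fused to its C-terminus. Chromatin immunoprecipitation used an antibody against GFP, after sonication to fragments of 200 to 800 bp. All 3 samples were biological replicates of that line, so no contrast between groups could be made. Lists called with relaxed settings gave 24378 peaks for replicate 1, 30000 for replicate 2, 29769 for replicate 3 and 23571 for the pooled replicates. Of the pooled 23571, 6194 had a q of at most 0.05, so the relaxed lists can hold background as well as binding sites. The embryos were not separated by stage or cell type, so binding in more cells and stronger binding per cell cannot be told apart. Neither a control library nor read depths were used here, and signal that did not come from the tagged protein was not separated from its binding.

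Introns close to a start site are a common place for regulatory DNA in the fly. The first intron of a gene often holds enhancers, and many fly genes have alternative promoters, so that a site in an intron of the long transcript can lie just upstream of the start of a shorter one. Binding at such a site can therefore be near a promoter of the host gene in either direction, or near the start of another gene nested in the intron.

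The DNA at the summits of 6 of the 8 best ranked peaks is shown first, because the mean GC content at the summit was lower at strong than at weak sites of this kind in each replicate. Each line gives the host gene, the dm6 position and the bases up to 50 bp on either side of the summit on the plus strand, from the RefSeq copy of that build. Capitals mark runs of at least 10 bases that are all A or T.

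ush chr2L:481035-481135: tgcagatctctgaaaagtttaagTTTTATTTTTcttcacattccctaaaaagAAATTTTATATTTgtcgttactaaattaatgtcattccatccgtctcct

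CG11050 chr2L:6612664-6612764: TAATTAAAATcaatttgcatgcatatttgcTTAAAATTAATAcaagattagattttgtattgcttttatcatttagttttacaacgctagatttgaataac

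Lk6 chr3R:11760992-11761092: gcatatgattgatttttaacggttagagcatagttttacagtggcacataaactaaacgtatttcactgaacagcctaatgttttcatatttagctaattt

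CG9663 chr2L:3302120-3302220: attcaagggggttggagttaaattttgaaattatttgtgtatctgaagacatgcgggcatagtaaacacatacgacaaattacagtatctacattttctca

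cno chr3R:5215477-5215577: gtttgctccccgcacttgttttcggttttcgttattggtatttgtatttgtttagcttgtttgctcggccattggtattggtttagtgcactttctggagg

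Trl chr3L:14759452-14759552: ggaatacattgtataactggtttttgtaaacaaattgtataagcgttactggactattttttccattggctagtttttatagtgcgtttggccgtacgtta

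The GC content of these windows was 28.7% at ush, 21.8% at CG11050, 30.7% at Lk6, 33.7% at CG9663, 42.6% at cno and 33.7% at Trl. Runs of at least 10 A or T bases were found at ush and CG11050, with 2 runs in each, and in none of the other 4 windows. The windows of Adf1 and HmgZ, ranked 6th and 7th, are not printed and had 27.7 and 45.5% GC. For comparison, the next lines show the same stretch at a pair of weak sites with the same location in the genome, in introns of plx and CG12811. These were the sites with the highest pooled signal among those over 1000 bp from every reproducible summit and with the median GC content of such sites. Their pooled signals were 108.3 and 106.6, just below the cutoff of 108.6, whereas the median of the weak sites was 49.9.

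plx chr3R:5686468-5686568: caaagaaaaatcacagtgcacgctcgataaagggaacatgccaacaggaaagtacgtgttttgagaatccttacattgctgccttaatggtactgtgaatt

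CG12811 chr3R:10048242-10048342: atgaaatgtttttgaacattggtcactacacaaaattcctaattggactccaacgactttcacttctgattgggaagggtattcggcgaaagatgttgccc

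Both weak windows had 40.6% GC, which the choice of these sites fixed, and no run of at least 10 A or T bases.

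Peak heights are the signal values that the authors deposited. For each reproducible peak, the highest signal among relaxed peaks of a replicate within 100 bp of the summit was taken and divided by the median of that replicate over all reproducible peaks. It is called relative signal below, so that 1 is the height of a middling reproducible peak. The peaks were ranked by the mean of their ranks in the 3 replicates.

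The tallest of the 435 peaks lay in the first intron of ush, which encodes U-shaped, a zinc finger protein that works with GATA factors in heart, blood and bristle development. This peak covered chr2L:480839-481314, 4865 bp downstream of the nearest start of ush, and its nearest TSS, 1397 bp away, was that of cbt, which encodes the zinc finger protein Cabut. Its relative signal was 17.9 in replicate 1, 16.0 in replicate 2 and 17.4 in replicate 3. Every replicate put it above all other peaks of the 435.

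The runner-up lay in CG11050 at chr2L:6612488-6612910, with relative signals of 12.4, 13.3 and 11.6 in replicates 1, 2 and 3. Its summit was in a short intron of 140 bp, 1027 bp downstream of the start of the same gene, so the peak itself reached over neighbouring exons. The peak ranked next, at chr3R:11760864-11761249, was in the first intron of Lk6, a kinase that phosphorylates the translation factor eIF4E, and it had relative signals of 10.6, 11.6 and 12.1. In every replicate these 3 peaks stood above all those ranked below them. The next by mean rank was the CG9663 peak, which had 7.69, 7.50 and 10.6 and so was higher in replicate 3 than in replicates 1 and 2. In replicate 1 the cno peak, at 8.37, stood above the CG9663 peak.

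**Figure D1:**
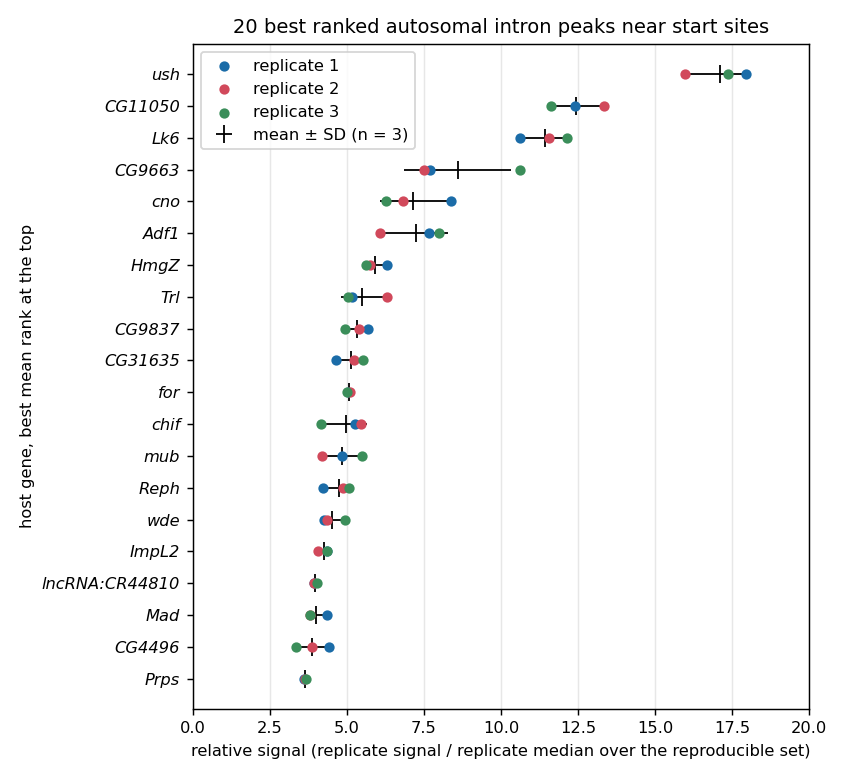
Relative signal of the 20 best ranked peaks, named by host gene with the best mean rank at the top; points are replicates, and the black marks are means ± SD over 3 replicates. The ush peak stood at 17.1 ± 1.02, and from Trl at 5.50 ± 0.687 down to Prps at 3.63 ± 0.0395 neighbouring peaks mostly overlapped.

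The next peaks were in genes of cell junctions and of DNA-binding proteins. The cno peak, in the gene for Canoe, the fly homologue of afadin that links cell junctions to actin, had 8.37, 6.801 and 6.27. The peak in Adf1, which encodes a DNA-binding transcription factor, had 7.68, 6.06 and 7.99. That in HmgZ, which encodes an HMG-box chromatin protein, had 6.30, 5.75 and 5.63. The order of cno and Adf1 was not the same in every replicate, whereas Adf1 exceeded HmgZ in all 3.

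The best ranked peak on arm 3L lay in Trl, which encodes the GAGA factor, a DNA-binding protein that keeps promoters accessible. Its relative signals were 5.17, 6.29 and 5.04, and it lay 1540 bp upstream of an internal start shared with CG42507. The peaks in CG9837 (5.33 ± 0.376), CG31635 (5.13 ± 0.445) and for (5.06 ± 0.0472, SD, n = 3 for each) were not in the same order in every replicate. The gene for encodes a cGMP-dependent protein kinase known for its effect on foraging behaviour.

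The peaks ranked next were in chif, the homologue of the replication kinase activator Dbf4 (4.96 ± 0.696), mub, an RNA-binding protein gene (4.84 ± 0.646), Reph (4.72 ± 0.444) and wde, which encodes a partner of the histone methyltransferase Eggless (4.51 ± 0.374; SD, n = 3 for each). After them came ImpL2, which encodes a secreted insulin-binding protein (4.25 ± 0.155), lncRNA:CR44810 (3.96 ± 0.0532), Mad, which encodes the transcription factor of the Dpp pathway (3.99 ± 0.322), and CG4496 (3.87 ± 0.543; SD, n = 3 for each). The peak ranked 20th was in Prps, a phosphoribosyl pyrophosphate synthetase gene, at 3.63 ± 0.0395 (SD, n = 3), and its nearest TSS was that of asRNA:CR45804, 733 bp away. From chif to Prps the values form a gradual slope with no clear break.

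Heights fell off steeply over the whole set. In all 3 replicates, 9 of the 435 peaks exceeded a relative signal of 5 and 47 exceeded 2, while 150 were above 1 and 152 below 1. The median of the mean relative signals was 0.988, over the 399 peaks found in every replicate. The spread between replicates, as the SD over the mean, had a median of 8.18% in the 20 best ranked peaks and 17.8% in the others. The 4 peaks with the lowest mean rank were in Irk1, atos, shn and Acsl. The atos peak had 0.501 ± 0.128 and the Acsl peak 0.380 ± 0.157 (SD, n = 3 for each), the Irk1 peak was not found in replicate 3, and the shn peak was found in replicate 2 alone.

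Compared with intron peaks over 2000 bp from every TSS, of which there were 576, these peaks had a higher relative signal in each replicate. The medians were 0.962, 1.04 and 0.984 in replicates 1, 2 and 3, against 0.936, 0.934 and 0.876 in the far intron peaks, with summits not found counted as lowest. The difference was 0.0798 ± 0.0468 (SD, n = 3), above 0 in 3 of 3 replicates, with p = 0.25 in an exact two-sided permutation test that flips the signs of the replicates. That p is the smallest that 3 replicates allow, so no test of this kind could pass 0.05 here. The gap was wider among tall peaks, since 14.6 ± 1.27% exceeded a relative signal of 2, against 8.39 ± 0.361% of the far intron peaks (SD, n = 3 for each), a difference seen in 3 of 3 replicates (exact permutation p = 0.25). Above a relative signal of 5 there were 11, 12 and 12 peaks in the 3 replicates, against 1, 2 and 1 far intron peaks. Over all 3953 reproducible peaks, 14.5 ± 0.178% exceeded 2 (SD, n = 3), and 80, 89 and 88 peaks exceeded 5. The share over 2 here was thus close to that of the whole reproducible set, and the share of the far intron peaks was below it.

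Against the 1661 autosomal peaks within 500 bp of a TSS, the medians did not differ in a steady direction. The difference was -0.0249 ± 0.0490 (SD, n = 3), positive in 1 of 3 replicates, with p = 0.5 in the same exact permutation test. Tall peaks were less frequent than at promoters, at 14.6 ± 1.27% over a relative signal of 2, against 17.7 ± 0.092% (SD, n = 3 for each), and this held in 3 of 3 replicates (exact permutation p = 0.25). The tallest promoter peaks reached 33.2, 37.2 and 39.0, above the ush peak in each replicate.

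**Figure D2:**
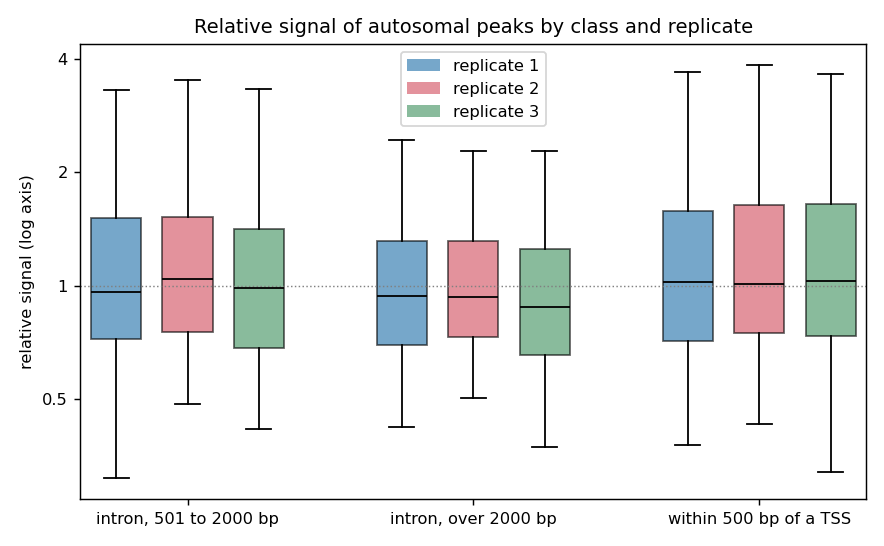
Relative signal on a log axis for intron peaks 501 to 2000 bp from a TSS (n = 435), intron peaks over 2000 bp away (n = 576) and promoter peaks (n = 1661), in replicates 1, 2 and 3; boxes span the quartiles with the median as a line, and whiskers reach the 5th and 95th percentiles. The upper quartiles were 1.51, 1.52 and 1.42 in the near intron peaks, against 1.32, 1.31 and 1.25 in the far intron peaks and 1.58, 1.64 and 1.65 at promoters.

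Most of these peaks were found again in each replicate. A relaxed peak lay within 100 bp of the summit for 95.6%, 98.2% and 97.2% of them in replicates 1, 2 and 3, a mean of 97.0 ± 1.28% (SD, n = 3), against 96.4 ± 0.706% of the other autosomal peaks. Among the strongest peaks of each replicate, taking as many as the reproducible set holds, 83.1 ± 3.67% of the 435 were found, against 82.5 ± 1.74% of the other autosomal peaks (SD, n = 3 for each). Both differences were smaller than the spread between replicates. The replicates contributed to the pooled list that defined the set, so these shares are not independent of it. All 3 replicates held 266 of the 435 among their strongest, and 2 of the 435 were in none of the 3 lists. Replicate summits lay at a median of 12.5, 10 and 17 bp from the pooled summit.

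The share of relaxed peaks that were reproducible was close to the background. Of the 2365 pooled relaxed summits with the same location, 435 were in the reproducible set, which is 18.4% (95% Wilson interval 16.9 to 20.01%, covering counting error only), against 16.8% of all pooled relaxed peaks. Among pooled relaxed peaks with a q of at most 0.05 the order turned, at 62.6% of those with this location and 63.8% of all. In the replicates, the location held 11.1 ± 0.382% of the strongest peaks and 9.40 ± 1.14% of the remaining relaxed peaks (SD, n = 3 for each).

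On the arms, 90 peaks were on 2L, 115 on 2R, 102 on 3L, 127 on 3R and 1 on chromosome 4. Per megabase of intron sequence that met the distance rule, this was 43.5 on 2L, 54.4 on 2R, 44.2 on 3L and 48.7 on 3R, around a mean of 47.1, and 7.73 on chromosome 4. The single peak on chromosome 4 was in Asator, a tau tubulin kinase homologue, with 1.01, 0.935 and 0.888, close to a middling reproducible peak.

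Within their host genes the peaks were mostly in first introns. In 374 of the 435, or 86.0% (95% Wilson interval 82.4 to 88.9%), the summit was in the first intron of at least 1 host transcript. For the far intron peaks this share was 62.2% (58.1 to 66.0%). The classes were set by distance from a start, which bears on this share by itself, so the difference is only a description. The share in first introns also differed between strong and weak peaks of this location. In each replicate, the peaks of this location among the strongest were called strong, and the rest, if over 1000 bp from every reproducible summit, weak. Of the 2365 pooled relaxed summits of this location, 695 had a q of at most 0.05, the 435 among them. Most weak pooled summits thus did not pass that limit, and weak peaks may be background rather than weak binding. All 3 replicates held 266 of the 435 peaks among their strongest, so their strong peaks were in good part the same sites. Weak peaks were chosen with 1 shared set of reproducible summits. For position and sequence, agreement of the replicates and a small SD are therefore not independent evidence. First introns held 85.4, 87.1 and 85.4% of the strong peaks, against 69.9, 72.2 and 69.8% of the weak peaks. The difference of 15.4 ± 0.410 percentage points (SD, n = 3) was seen in 3 of 3 replicates (exact permutation p = 0.25).

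The nearest TSS belonged to the host gene for 372 peaks, or 85.5% (95% Wilson interval 81.9 to 88.5%), as against 66.8% (62.9 to 70.6%) of the far intron peaks. The distance rule bears on this difference too. In the other 63 peaks the nearest TSS belonged to another gene, which was protein-coding for 33, a non-coding RNA for 20, a snoRNA for 5 and a tRNA for 5. Host genes were protein-coding for 430 of the 435. By replicate, the nearest TSS was that of the host for 85.8 ± 0.627% of strong peaks and 74.3 ± 2.16% of weak peaks (SD, n = 3 for each), a difference in the same direction in 3 of 3 replicates (exact permutation p = 0.25).

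Relative to the nearest start of the host, 302 peaks were downstream, which is 69.4% (95% Wilson interval 64.9 to 73.6%), and 133 were upstream of an internal start, which is 30.6% (26.4 to 35.1%). The peaks in Lk6, HmgZ, Trl, CG9837, chif, Reph, ImpL2, lncRNA:CR44810, Mad and CG4496 among the best 20 were of the upstream kind. A host with more than 1 annotated start position was found for 327 peaks.

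The peaks leaned towards the start site. Of the 435, 213 were 501 to 1000 bp from it, 136 were over 1000 and up to 1500 bp, and 86 were over 1500 bp away, with a median of 1005 bp. In the replicates, 48.3 ± 1.496% of strong peaks and 39.3 ± 0.203% of weak peaks were 501 to 1000 bp away (SD, n = 3 for each), and the difference of 8.99 ± 1.65 percentage points held in 3 of 3 replicates (exact permutation p = 0.25). Upstream of the nearest TSS, the excess was in 1 stretch. The part 501 to 750 bp upstream of the nearest TSS held 14.2 ± 0.597% of strong peaks, against 7.99 ± 0.162% of weak peaks (SD, n = 3 for each; exact permutation p = 0.25, higher in 3 of 3 replicates). In all, 37.0% of the 435 peaks and 35.7% of the weak pooled summits were upstream of the nearest TSS. The weak peaks had to be over 1000 bp from reproducible summits, which removes some near bound start sites; with weak peaks over 200 bp away, the difference in the 501 to 1000 bp share was 7.08 and that in the upstream stretch 6.13 percentage points.

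**Figure D3:**
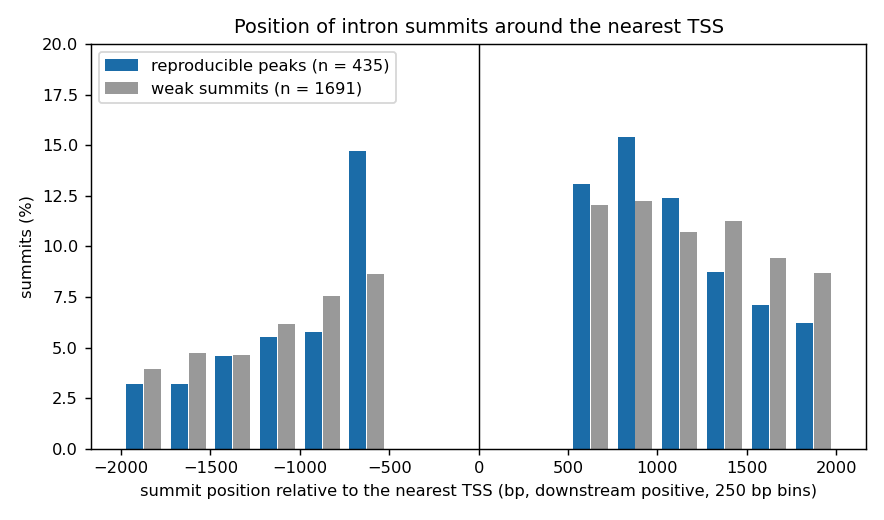
Share of summits in 250 bp bins around the nearest TSS, with downstream positions positive, for the 435 reproducible peaks (blue) and the 1691 weak pooled summits of the same location (grey). The bin 501 to 750 bp upstream held 14.7% of the reproducible peaks, against 8.63% of the weak summits, and the bin over 1750 bp downstream held 6.21%, against 8.69%. Each of the other 5 upstream bins held a lower share of the reproducible peaks than of the weak summits.

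At the distance limits, the values of the peaks nearest to each limit overlapped on either side. Just inside the lower limit were a peak in Pino 503 bp from the TSS, with relative signals of 1.14, 1.01 and 1.06, and one in loco at 505 bp, with 0.779, 1.17 and 0.679. Just outside it were a peak in CG2201 at 498 bp, with 0.772, 0.977 and 0.411, and one in CG5854 at 496 bp, with 2.30, 1.88 and 1.81. At the upper limit, a peak in fra at 1989 bp had 0.662, 0.809 and 0.625, and one in CG3764 at 1976 bp had 1.53 and 2.06 and was not found in replicate 3. Beyond it, a peak in MFS3 at 2007 bp had 0.610, 0.571 and 0.590, and one in Tet at 2014 bp had 0.874, 0.601 and 0.530. At the IDR threshold, the last peak included was in Irk1 with a pooled signal of 109.3, and the first one left out was in ctrip with 108.5.

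A second summit at the start site itself was the exception. The nearest TSS also had a reproducible summit within 500 bp for 98 of the 435 peaks, or 22.5% (95% Wilson interval 18.9 to 26.7%). The share was 19.4% (16.4 to 22.9%) for the far intron peaks and 13.6% (13.2 to 14.1%) over all 19674 autosomal start positions. With the peaks at or above the median pooled signal alone, the shares were 12.8% here, 14.1% for the far intron peaks and 7.70% over all start positions. The ush, Adf1, CG31635 and chif peaks were of this kind among the best 20. For 165 of the 435 the peak was the only reproducible summit within the whole host gene.

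The 435 peaks lay in 353 genes. Of these genes, 291 had 1 such peak, 49 had 2, 7 had 3, 5 had 4 and 1 had 5. Some neighbouring summits were close enough to share fragments: 18 pairs were at most 250 bp apart, and 49 of the 435 lay within 250 bp of another reproducible summit. In such a pair the lower peak may not be separate, which was not tested.

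The gene with 5 was shn, which encodes Schnurri, a large zinc finger protein that acts with Mad in Dpp signalling. Its 5 peaks spanned 21714 bp, and 11 reproducible summits lay in the gene. The best ranked had relative signals of 0.966, 1.13 and 0.948, another had 0.893, 0.658 and 0.484, and the other 3 were each missing from at least 1 replicate. A pair of these were 208 bp apart.

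In ush, 4 peaks met the rule among 14 reproducible summits in the gene. Beside the tallest one, they had mean relative signals of 1.18 ± 0.256, 0.927 ± 0.303 and 0.822 ± 0.0160 (SD, n = 3 for each). The 1.18 and 0.927 peaks lay 1282 and 531 bp upstream of an internal start of the gene. The tall peak had no neighbour of its own height in the gene.

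**Figure D4:**
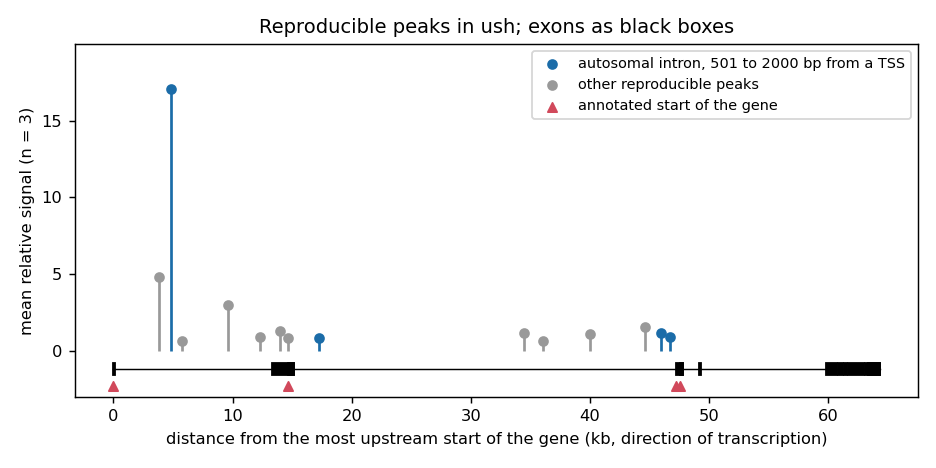
Mean relative signal (n = 3) of the reproducible peaks in ush against the distance from its most upstream start in kb, with peaks that met the rule in blue, other reproducible peaks in grey, exons as black boxes and annotated starts as triangles. The tall peak 4865 bp from the first start reached 17.1, and the next in height was a peak near the cbt start at 4.84.

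HmgZ also held 4 peaks, one of them tall at 5.89 ± 0.357 and the others at 1.53 ± 0.253, 0.937 ± 0.216 and 0.815 ± 0.272 (SD, n = 3 for each). The 1.53 peak was nearest to the start of HmgD, the neighbouring gene for another HMG-box protein. Trl showed the same form, with 5.50 ± 0.687 at the tall peak and 1.304 ± 0.254 and 0.746 ± 0.322 at the others. In CG9837, the tall peak at 5.33 ± 0.376 stood beside others at 1.82 ± 0.586 and 0.970 ± 0.121. The ush, HmgZ, Trl and CG9837 genes each had one tall peak and lower companions.

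In the remaining genes with 3 or more peaks, no mean relative signal exceeded 3.2. Acsl, which encodes a long-chain acyl-CoA synthetase, had 4 between 0.380 and 1.31. Svil, the supervillin gene, had 4, of which the 3 found in every replicate were between 0.680 and 1.33, and tou, a chromatin regulator gene, had 4, of which 3 were between 0.829 and 1.21. The other tou peak was not found in replicate 1 and had 2.16 and 2.05 in replicates 2 and 3, with another reproducible summit 204 bp away. Those with 3 were Kank (0.714 to 3.16), Irk1, a potassium channel gene (0.709 to 2.12 in the 2 found in every replicate), Doa, a splicing factor kinase gene (0.653 to 1.62), Tpr2 (1.16 to 1.55) and loco, a regulator of G protein signalling (0.723 to 1.33).

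Host genes were then read against 8 lists of genes by role. A gene could host such a peak if it was protein-coding, autosomal and had intron sequence within the distance rule, which held for 7535 genes. Of these, 348 hosted at least 1 peak, or 4.62% (95% Wilson interval 4.17 to 5.12%). Genes of the regulatory lists have more such sequence, so the number of peaks per megabase of it is given beside each share, against 44.9 over all 7535 genes. The lists were chosen with results of these data known, and no test was made. Some genes are in more than 1 list, such as Lk6 (kinases and RNA-binding) and Stat92E (signalling and patterning). The lists thus have some peaks in common, and their rates are not independent.

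Among cytoskeleton and small GTPase genes, 14 of 49 hosted a peak, or 28.6% (17.8 to 42.4%), at 77.0 per megabase. After cno came jar, the gene of myosin VI, with 2.49, 2.10 and 2.10, and Dhc64C, the gene of the cytoplasmic dynein heavy chain, with 2.13, 2.04 and 2.01. Both stood above 2 in every replicate. The list held 15 peaks, and the median over those found in every replicate was 1.62, against 0.988 over all 435 taken the same way.

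Among kinase and phosphatase genes, 16 of 62 hosted a peak, or 25.8% (16.6 to 37.9%), at 89.0 per megabase. Lk6 and for led this list, and next was fray, a kinase gene involved in ion transport, with 2.97, 3.22 and 3.06, nearest to a start shared with CG7694. The median over its 19 peaks, taken the same way, was 1.05, close to that of all 435.

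Signalling genes were hosts in 18 of 74 cases, or 24.3% (16.0 to 35.2%), at 96.2 per megabase. The best ranked after Mad were InR, the insulin receptor gene, with 3.65, 2.87 and 2.85, and drk, the gene of an adaptor downstream of receptor tyrosine kinases, with 2.49, 2.32 and 2.46. The drk peak was nearer to the start of mars, 870 bp away, than to its own. The list held 21 peaks, and the median over the 20 found in every replicate was 0.868.

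Of genes for RNA-binding and translation regulators, 10 of 53 were hosts, or 18.9% (10.6 to 31.4%), at 54.5 per megabase, close to the rate over all genes. Lk6 and mub led, and brat, a translational repressor gene, had 3.12, 3.52 and 2.72. The list of patterning and cell fate genes, most of them transcription factors, had 17 hosts among 113, or 15.04% (9.61 to 22.8%), at 69.5 per megabase. After ush the best ranked were zfh1, with 2.87, 3.05 and 2.68, and EcR, the ecdysone receptor gene, with 2.63, 1.55 and 2.87. The EcR values were the less even ones. The list held 30 peaks, and the median over the 25 found in every replicate was 0.859.

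Chromatin and corepressor genes hosted peaks in 8 of 58 cases, or 13.8% (7.16 to 24.9%). The median gene of this list had 592.5 bp of qualifying intron sequence, less than the 1288 to 2848.5 bp of the other 7 lists. The rate of this list, 117 per megabase, was the highest of the 8, but it rests on 11 peaks, 3 of them in Trl. Its exact 95% Poisson interval, for counting error only, was 58.2 to 209 per megabase. That interval overlaps, among others, those of signalling (59.6 to 147), kinase (53.6 to 139), cytoskeleton (43.1 to 127) and patterning genes (46.9 to 99.3). The order of these lists by rate was thus not resolved. After Trl came simj, with 2.02, 2.01 and 1.46, and Sin3A, a corepressor gene, with 1.56, 1.63 and 1.46. The start nearest to each of these last 2 peaks also had a reproducible summit.

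Cell adhesion and axon guidance genes, and ion channel and neuronal genes, had the lowest rates of the 8 lists. For adhesion and guidance, 4 of 50 genes were hosts, or 8% (3.15 to 18.8%), at 26.1 per megabase. They were fra, the netrin receptor gene, with 1.41, 1.72 and 1.17 at its better peak, Fas3, with 0.940, 0.821 and 0.953, LanA, a laminin gene, with 0.799, 1.34 and 0.661, and crb, whose peak was not found in replicate 3. For ion channels and neuronal genes, 2 of 56 were hosts, or 3.57% (0.985 to 12.1%), at 19.0 per megabase. KCNQ, a potassium channel gene, had a peak of 3.38, 3.26 and 3.33 that lay nearest to the start of mlt, and Inx3, a gap junction gene, had 0.871, 0.738 and 0.929. These rates rest on 5 and 3 peaks, and their exact 95% Poisson intervals, for counting error only, were 8.48 to 60.9 and 3.91 to 55.4 per megabase, so both include the 44.9 of all genes. The share of hosts was above the 4.62% of all genes for adhesion and guidance and below it for ion channels, and both intervals include it. The median genes of the pair of lists had 2848.5 and 2434 bp of qualifying intron sequence, against 370 bp over all genes.

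The sequence at the summits was rich in A and T over a narrow stretch. These short windows, from 50 bp before to 50 bp after the summit, of the 435 peaks had a median GC content of 33.7%, the same as the 33.7% of the far intron peaks and below the 36.6% of promoter peaks. Weak pooled summits of the same location had 40.6%, and the whole of that location, cut into 83058 windows of the same length away from reproducible summits, had 38.6%. By replicate, the mean GC content was 35.1, 34.4 and 37.0% at strong peaks, against 40.7, 39.7 and 42.6% at weak peaks. The difference was -5.48 ± 0.186 percentage points (SD, n = 3), below 0 in 3 of 3 replicates (exact permutation p = 0.25). The printed ush and CG11050 windows are low in GC. Those at cno (42.6%), HmgZ (45.5%), wde (44.6%) and mub (48.5%) were richer in GC, so tall peaks were not all on DNA low in GC. Strong peaks of the replicates were in good part the same sites, so their agreement in GC content is not independent.

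The dip in GC content was narrow. In the 50 bp bins on either side of it the mean was 34.3 and 35.2%, in the bins centred 75 bp away it was 38.2 and 39.0%, and at 975 bp it was 41.7 and 41.4%. Between them it was higher, reaching 44.5% in the bin centred 225 bp away on the plus strand side. Weak summits showed no such dip, at 40.2 and 41.1% in the bins beside the summit and 41.8 and 41.4% at 975 bp. The far intron peaks had such a dip too, at 34.25 and 34.17% beside the summit.

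**Figure D5:**
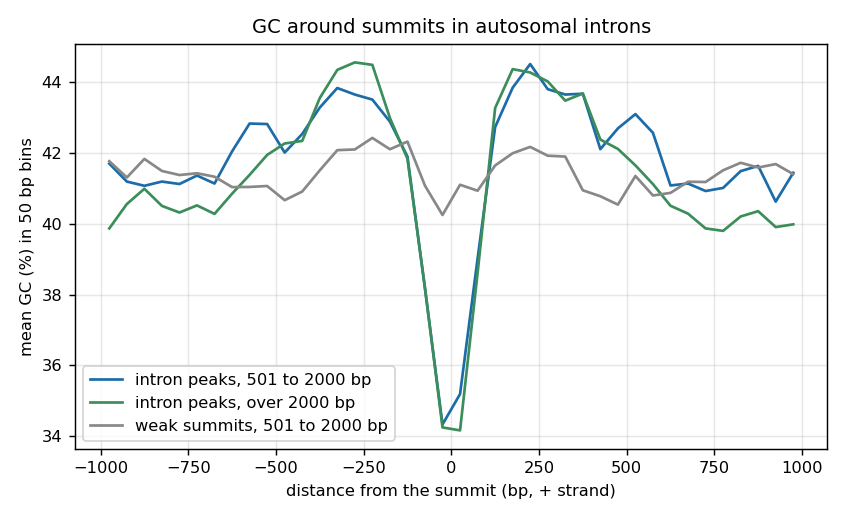
Mean GC content in 50 bp bins up to 1000 bp on either side of the summit, for intron peaks 501 to 2000 bp from a TSS (blue, n = 435), intron peaks over 2000 bp away (green, n = 576) and weak summits 501 to 2000 bp from a TSS (grey, n = 1691). Both sets of reproducible peaks fell to about 34 to 35% at the summit, where the weak summits stayed at 40.2 and 41.1%.

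Runs of at least 10 A or T bases, as marked in the printed windows, were in 196 of the 435 windows, or 45.1% (95% Wilson interval 40.4 to 49.8%). They were in 46.0% of far intron windows, 44.7% of promoter windows, 36.1% of weak windows and 37.9% of all windows of the location. By replicate they were in 44.7 ± 4.65% of strong windows, against 34.2 ± 3.89% of weak windows (SD, n = 3 for each), higher in 3 of 3 replicates (exact permutation p = 0.25).

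No searched motif was in more than 22.3% of these windows. The windows were searched on both strands for 35 short motifs of known fly regulators, as plain letters, so overlapping motifs were each counted. Shares of strong and weak peaks differed in the same direction in all 3 replicates for 22 of the 35, higher at strong peaks for 8 and lower for 14. The motifs differ in GC content and so do the windows, and the part of base composition in these shares was not tested. The replicates have many strong sites in common, so their agreement on a motif is not independent.

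The 7 motifs that differed by over 2 percentage points are given here. The letters AGATAA, which factors of the GATA family recognise, were in 9.99% of strong and 6.98% of weak windows, a difference of 3.01 ± 0.633 percentage points. Those of the initiator core, TCAGT, were in 19.4 and 17.0%, a difference of 2.36 ± 1.99, and those of the Caudal site, TTTATG, in 14.7 and 12.4%, a difference of 2.27 ± 1.23 (SD, n = 3 for each, exact permutation p = 0.25 for each). Over all windows of the location, AGATAA was in 7.11%, TCAGT in 15.7% and TTTATG in 13.3%. Among the 435 windows these were in 8.28, 22.3 and 13.6%, so GATA and Caudal letters were near the level of the location as a whole.

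The largest difference was a loss. The core of the Pho site, GCCAT, was in 12.5% of strong and 18.7% of weak windows, a difference of -6.17 ± 1.68 percentage points, against 18.6% over the location. The letters TGACG, one side of the cyclic AMP response element, differed by -3.19 ± 1.32, the Sp/KLF letters GGGCGG by -2.62 ± 0.540 and CCACCC by -2.47 ± 0.994 (SD, n = 3 for each, exact permutation p = 0.25 for each). These motifs were lower at strong peaks in 3 of 3 replicates.

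Of the motifs known from promoters, 2 were in none of the windows and others were not rare. The letters TATCGATA, the DNA replication-related element, were in 0 of the 435 windows, which allows a share of up to 0.690% (3 counts of the total, counting error only), against 4.27% of the 1661 promoter windows and 0.197% over the location. GGTCACAC, the core of the M1BP site, was likewise in 0 of 435, against 1.63% at promoters and 0.123% over the location. For both motifs the share over the location was below the 0.690% limit. Among the 576 far intron windows, TATCGATA was in 0 and GGTCACAC in 1, so this absence is not particular to these peaks. The BEAF-32 core CGATA was in 10.8% of the 435 windows, near the 11.0% of the location as a whole, and in 23.1% of promoter windows. GAGAG, the GAGA factor site, was in 12.6%, against 10.6% over the location, and the initiator core TCAGT was in 22.3%, against 17.8% of promoter windows. Of 10 words of 8 letters with the highest share at reproducible over weak promoter peaks, the highest count in the 435 windows was 5, for GATATTAC, which is 1.15%, against 0.355% of weak windows and 0.252% over the location. CGTTATTA and AAATCTCG were each in 4 windows, or 0.920%, against 0.276 and 0.296% over the location, and 2 of the 10 words were in none. The remaining words were in 1 or 2 windows each, at 0.230 to 0.460%, against 0.134 to 0.408% over the location. Of these, ACTTACTA and GTACCAAA were below their share over the location. Counts this small do not show an enrichment.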

How the data were processed

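Anti-GFP ChIP-seq of CG16863-eGFP embryos was deposited as peak lists on the dm6 build, per the labels. Heights are the signal values the authors deposited with their peaks. The significance is a −log10 q value in the deposited lists, used for 1 alternative. The aligner, the caller, the IDR settings and the depth were not given in the sources used here, so no counting error of a height can be given. Lists on another build were not used.

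Coordinates are 1-based dm6. Genes came from Ensembl release 115 (BDGP6), with 18164 genes on 6 arms, transposable elements left out. Arm lengths of the RefSeq genome held every peak. The host gene was the one over the summit, protein-coding first, then the one with the nearest start. Summits without a replicate peak within 100 bp ranked lowest in medians and were left out of means. Differences over the 3 replicates were tested by exact permutation of signs, two-sided, with a smallest p of 0.25. Shares carry 95% Wilson intervals, for counting error alone. The peaks are not replicates. The scripts, in Python with numpy, pandas and scipy, were tested on simulated data.

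The peaks, gene lists and motifs were chosen with earlier results of these data known. Peaks named are the 20 with the best mean rank, the best on each arm, up to 3 per gene list, those in genes with 3 or more, those nearest to each limit and the 4 lowest. Other named items were chosen after their values were seen, as were the comparisons of position and of shares over a relative signal of 2. Of the lists' genes, those absent from the annotation used were left out. No alternative fit with other groups exists, since there is 1 group.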

Additional observations from a re-analysis of the deposited data

How the results depend on the processing

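Of 50 alternatives run on the main results, 41 were counted as kept and 9 moved a value. Kept means the same direction, a value within the error or, for counts of peaks and motifs, a count within a set ratio. By that ratio an upper limit of 1500 bp, which left 349 peaks, was kept. The cause of a move was not tested unless the alternative itself sets it. A stricter set (at or above the median pooled signal) left 226 peaks and 12.8% with a bound nearest TSS, a lower limit of over 1000 bp left 222 peaks by construction, and calling a TSS bound within 250 bp gave 16.8%. Among pooled peaks with a q of at most 0.05, 62.6% of those with this location were in the reproducible set, against 63.8% of all. Matching within 50 bp found 84.1% and within 200 bp 99.8% of the peaks, and 73.4 and 87.0% among the strongest. Leaving out each replicate in turn gave 96.4 to 97.7% found, 81.0 to 84.4% among the strongest, differences in median relative signal of 0.0659 to 0.107 against far intron peaks and -0.0529 to -0.00720 against promoter peaks, GC differences of -5.58 to -5.42, and 22 to 29 motifs with 1 direction. The order turned for the q-limited shares and for the bound nearest TSS in the stricter set (12.8%, against 14.1% of far intron peaks). Of 177 alternatives on single peaks and on comparisons added later, 154 kept the direction or stayed within the error and 23 moved. Of these, 20 are the best ranked peaks divided by the median of all relaxed peaks of the replicate, a lower divisor, which put ush at 55.0 and Prps at 11.8 and the difference from far intron peaks at 0.267, and 3 are the for, lncRNA:CR44810 and Prps peaks matched within 50 bp, at 4.92, 3.85 and 3.53. No paired analysis was possible because there is only 1 group of samples; classes of peak were compared within each replicate. With 3 replicates and no read depth, the order of neighbouring peaks with overlapping values was not resolved.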
